A study of Mus musculus with 15 samples.

Results

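Livers of 3 newborn mice in which the miR-379/miR-410 cluster of microRNAs was deleted on the maternal chromosome, and which are named normoglycaemic in the sample titles (normoglycaemic KO) were compared with livers of 5 wild-type (WT) pups. The libraries were chosen by these titles and make up 8 of the 15 single-colour Agilent arrays of the study, with 1 array per pup. The remaining 7 arrays hold livers of severely hypoglycaemic KO pups, which are used here to show where normoglycaemic KO livers stood apart from other KO livers. All pups were C57BL/6J, 1 day old and littermates across genotypes. Both KO groups carried the deletion on the chromosome inherited from the mother, and no pup of either genotype is described as treated. The design text describes the normoglycaemic KO pups as mildly hypoglycaemic. The sources used here do not give the bounds of the deletion, the sex or the litter of a pup, so p-values measure the spread between these pups only.

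The labels give a blood glucose of 44, 56 and 44 mg/dl in the normoglycaemic KO pups (48 ± 6.93 mg/dl, SD, n = 3). The WT pups had 51, 72, 50, 55 and 65 mg/dl (58.6 ± 9.56 mg/dl, SD, n = 5). The ranges overlapped, and the difference of −10.6 mg/dl did not pass a 2-sided exact permutation test (p = 0.143, smallest possible p = 0.0179 with 56 splits). Hypoglycaemic KO pups had 9 to 33 mg/dl, below every pup of both other groups. The KO pups had been sorted by this measure, so it describes the groups and does not test the deletion.

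The miR-379/miR-410 cluster lies on chromosome 12, in the imprinted domain between Dlk1 and Dio3. Its microRNAs are cut from a long noncoding transcript made on the maternal chromosome, whose stable parts are annotated as Meg3, Rian and Mirg. The Mirg probes used here lie at the far end of the cluster. The protein-coding genes Dlk1, Rtl1 and Dio3 of the same domain are expressed from the paternal chromosome. At birth the placental supply of glucose ends, and the liver takes over by breaking down glycogen and by gluconeogenesis, under glucagon and glucocorticoids, while milk brings fat for oxidation and ketone synthesis.

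RefSeq (GRCm38.p6) lists 35 microRNA hairpins on the plus strand from Mir379 to Mir410, spanning 34736 bases, with 69 mature sequences and 63 different seeds. The seed, bases 2 to 8, is the part that pairs with target mRNAs. The 6 seeds that more than 1 mature sequence of the cluster shares are shown here because they are the part of the deleted microRNAs that overlaps in target recognition, with miR-410-3p as the last mature sequence of the cluster. The seed is in capitals.
miR-379-5p: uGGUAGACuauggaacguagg
miR-1193-5p: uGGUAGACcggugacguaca
miR-379-3p: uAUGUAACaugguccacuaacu
miR-411-3p: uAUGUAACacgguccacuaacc
miR-1197-5p: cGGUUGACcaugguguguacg
miR-758-5p: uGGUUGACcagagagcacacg
miR-453: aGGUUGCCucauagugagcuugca
miR-496a-5p: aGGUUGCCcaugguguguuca
miR-494-5p: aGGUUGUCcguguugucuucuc
miR-410-5p: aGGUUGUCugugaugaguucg
miR-376c-5p: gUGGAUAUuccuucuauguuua
miR-376b-5p: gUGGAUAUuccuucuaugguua
miR-410-3p: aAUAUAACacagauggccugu
The arrays measured longer transcripts and not these mature microRNAs.

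The next 4 array probes are shown because they read Mirg at the far end of the cluster, in or just beyond it, and are given with their mm9 position on the plus strand. Which of them lie inside the deletion is not given in the sources used here. Capitals in the third mark the 41 bases that the probe shares with the Mir410 hairpin.
Mirg probe, chr12:110979653-110979712: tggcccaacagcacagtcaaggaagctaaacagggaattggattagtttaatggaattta
Mirg probe, chr12:110987569-110987628: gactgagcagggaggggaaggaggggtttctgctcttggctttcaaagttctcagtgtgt
Probe over Mir410, chr12:110981965-110982024: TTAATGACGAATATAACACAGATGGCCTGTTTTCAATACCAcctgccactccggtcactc
Probe downstream of Mir410, chr12:110983688-110983747: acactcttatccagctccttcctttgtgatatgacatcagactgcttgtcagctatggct

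Each level below is the log2 signal relative to the array's own 75th percentile, and each difference is the mean level of normoglycaemic KO minus that of WT livers. Between 57.9% and 76.2% of the non-control spots were well above background, and arrays of the same or different groups correlated at 0.980 to 0.990. Arrays have no read depth, and their number limits the precision. Several libraries stood apart. Replicate 2 of both groups carried pancreas transcripts: signals of 27 measured acinar markers summed to 21.8, 1703 and 28.7 times the 75th percentile in normoglycaemic KO livers and to 29.6, 242, 27.2, 38.4 and 31.7 times in WT livers. Hypoglycaemic KO replicate 3 carried them too, at 284 times. Where pancreas-carrying libraries are left out below, only replicates 2 of normoglycaemic KO and WT are meant. The Y-linked Ddx3y was high in normoglycaemic KO replicates 1 and 3 and in WT replicate 3 and low in the other libraries of both groups, that is in 2 of 3 and in 1 of 5 livers. The slides held different shares too, with normoglycaemic KO replicates 1 and 2 beside WT replicates 1 and 2 on slide 1 and the rest on slide 2. Against its label, the library labelled hypoglycaemic KO replicate 2 had a Mirg level of 0.88, close to that of WT livers. It bears on the comparison with WT only through the spread shared by all arrays in the fit.

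Mirg, the noncoding RNA read at the far end of the cluster, was far lower in normoglycaemic KO livers. Its level was −2.55, −2.52 and −2.45 in normoglycaemic KO livers (−2.51 ± 0.05, SD, n = 3), against 1.30, 1.84, 1.13, 1.62 and 1.43 in WT livers (1.46 ± 0.28, SD, n = 5). The KO libraries were close to each other and far below every WT library. The difference was −3.97 (SE 0.61), or 15.6-fold lower, with p = 0.0179 in the 2-sided exact permutation test, the smallest the design allows. In the limma fit over all 15 arrays Mirg had an adjusted p of 0.134, and without the library labelled hypoglycaemic KO replicate 2 it had an adjusted p of 0.000521. The difference was −4.10 within slide 1 and −3.84 within slide 2. In hypoglycaemic KO livers, compared with the same WT livers, the level was −2.79 at the lowest, −1.93 at the median and 0.88 at the highest, and the difference from WT was −3.05.

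Other probes of the same stretch were lower as well, by differing amounts. The other Mirg probe, upstream of Mir410, had −3.48, −3.41 and −3.91 in normoglycaemic KO livers and 0.55, 1.20, 0.61, 1.16 and 0.76 in WT livers, a difference of −4.45. Downstream of Mir410 the printed probe read −4.06, −4.35 and −4.19 in normoglycaemic KO livers and −0.75, −0.45, −0.77, −0.21 and −0.62 in WT livers. The probe over the Mir410 hairpin was dim in both groups, at −4.42, −4.58 and −4.37 in normoglycaemic KO livers and −3.67, −3.44, −3.81, −3.92 and −4.18 in WT livers, a difference of −0.65. All 12 plus-strand probes used from chr12:110968473, ahead of the first Mirg probe, to the end of Mirg were below the WT mean, with a median difference of −1.88, and for 9 of them all normoglycaemic KO livers lay below all WT livers. The smallest of these differences were −0.09 and −0.34, at the 2 probes ahead of the first Mirg probe, and −0.21 at chr12:110983504, each with overlapping groups. Some probes of this stretch thus read similar signal in both groups. The stretch begins within the cluster. Any probes between it and the stretch from Meg3 described next were not counted, so the counts do not cover the whole cluster.

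Upstream of the cluster the transcript was not lower. From Meg3 to the cluster, 22 of 23 plus-strand probes had a higher mean in normoglycaemic KO than in WT livers, with a median difference of 0.81 and a range of −1.16 to 1.40, but the groups were apart for 1 probe. Taken by library, the median of these probes over the WT mean was 0.91, 1.47 and −0.05 in normoglycaemic KO replicates 1, 2 and 3. The third replicate, the one on slide 2, was thus at WT level: the median difference was 1.08 within slide 1 and −0.01 within slide 2. In hypoglycaemic KO livers 9 of these 23 probes were above the WT mean, with a median difference of −0.09. Minus-strand probes of the same stretch were also higher in normoglycaemic KO livers, 8 of 10, with a median difference of 0.52. By library their median over the WT mean was 0.92, 0.64 and −0.03 in normoglycaemic KO replicates 1, 2 and 3. The higher signal was thus not confined to the plus strand. The brightest Meg3 probe, for the tumour-suppressive noncoding RNA at the head of the transcript, had 5.33, 5.55 and 5.14 in normoglycaemic KO livers and 5.13, 5.03, 4.87, 5.24 and 4.92 in WT livers, which overlapped (difference 0.30, exact permutation p = 0.0536). Dlk1, a transmembrane Notch-related protein, differed by 0.27 (exact permutation p = 0.196), and Dio3, the enzyme that inactivates thyroid hormone, by −0.62 (exact permutation p = 0.446). Neither passed the test.

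**Figure D1:**
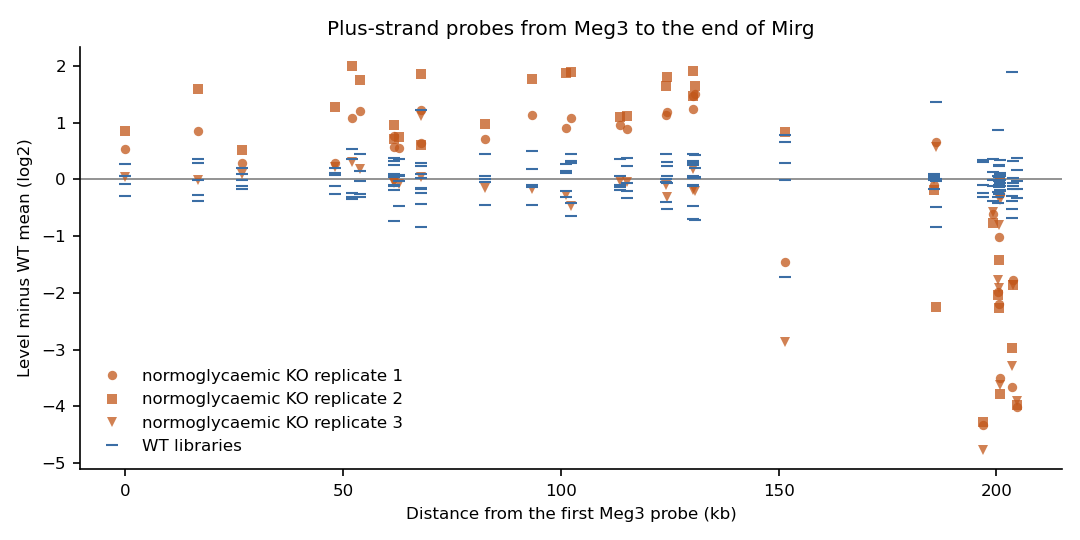
Level of each plus-strand probe minus its WT mean (log2, vertical axis) against the distance from the first Meg3 probe in kb (horizontal axis), with 3 symbols for the normoglycaemic KO libraries and dashes for the 5 WT libraries. Normoglycaemic KO replicates 1 and 2 run above WT from Meg3 onward while replicate 3 stays at WT level, and all 3 fall below WT at Mirg, down to a difference of −4.45. Any probes between the stretch from Meg3 to the cluster and the stretch at Mirg are not shown.

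Over all genes, no difference between normoglycaemic KO and WT livers passed the test with adjustment. Of 27416 genes or single-probe transcripts tested with limma, 0 passed a Benjamini-Hochberg adjusted p of 0.05 in either direction (0.0%). The lowest adjusted p was 0.0864, shared by a noncoding transcript that overlaps Mirg (difference −1.84) and by the predicted gene Gm3961 (at least 2.37-fold higher, a bound because no WT library was well above background). At an unadjusted p under 0.05, 908 genes were higher (3.31%) and 423 lower (1.54%), together 1331 (4.85%). With the replicate number as a block, 1052 were higher and 769 lower. In 693 genes all normoglycaemic KO livers were above all WT livers (2.53%), and in 377 all were below (1.38%), together 3.9%. Where no gene differs, a share of 0.0179 would on average be separate in each direction with 56 splits. A share of 0.05 would pass the unadjusted threshold. The shares found were near these. Scaling each array on its median in place of the 75th percentile gave 414 and 508 such genes, and 536 higher and 619 lower at the unadjusted threshold, so no excess of higher over lower genes is reported. The mean was higher in 15041 of the genes (54.9%) and lower in 12375 (45.1%), with a median difference of 0.02 over all genes. A difference of more than 1 was seen in 351 genes that were higher and 211 that were lower. The genes described next were picked because their groups were separate, so that separation is no result of its own. They are not called different.

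Of the named genes that were well above background in every library of both groups, Serpina3i, a serine protease inhibitor of the antichymotrypsin family, had the largest positive difference (probe at chr12:105504738-105504797, mm9). Its level was 0.59, 0.38 and −0.30 in normoglycaemic KO livers, against −2.13, −2.09, −1.97, −1.95 and −2.30 in WT livers. The WT livers were tightly grouped and all KO livers lay far above them. The difference was 2.31 (SE 0.52), or 4.97-fold, with an adjusted p of 0.846 in limma. With the fit limited to the 8 arrays the adjusted p was 0.0294, and a second probe of the gene differed by 0.23. Its near-identical family members may cross-hybridise: Serpina3k differed by 0.82 and Serpina3m by −0.48, and none of the 8 other measured members had separate groups. In hypoglycaemic KO livers Serpina3i ran from −1.94 to 0.63 with a median of 0.49, so that livers of that group lay at both levels.

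Further named genes with separate groups lay above WT. Miox, the enzyme that opens the ring of myo-inositol, had 4.61, 4.85 and 4.45 in normoglycaemic KO livers and 3.45, 4.24, 3.54, 3.44 and 3.81 in WT livers, a 1.92-fold difference. Apoa4, an apolipoprotein of triglyceride-rich particles, had 5.31, 5.52 and 5.09 in normoglycaemic KO livers and 4.70, 3.85, 4.35, 3.31 and 4.24 in WT livers, or 2.33-fold. Id1, a helix-loop-helix inhibitor that answers to bone morphogenetic proteins, had 3.42, 3.23 and 3.34 in normoglycaemic KO livers and 2.67, 2.60, 2.86, 2.71 and 3.11 in WT livers. In each of these genes every KO liver was above every WT liver, and each had an adjusted p of 0.957. Inhbe, a secreted activin subunit made by hepatocytes, had 4.12, 3.79 and 4.38 in normoglycaemic KO livers and 1.73, 1.32, 3.11, 3.75 and 3.10 in WT livers. Its groups were apart by little, with WT replicate 4 next to the KO livers, and the difference was 1.50 (SE 0.78). Agap2, a GTPase-activating protein of Arf, was at −0.76, −0.49 and −0.80 in normoglycaemic KO livers and at −1.19, −1.14, −1.49, −1.41 and −1.09 in WT livers, with no overlap.

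The other genes with the smallest p above WT were mostly dim. Prl7b1, a prolactin family member known from the placenta, was well above background in all normoglycaemic KO livers and in no WT liver, and was at least 2.36-fold higher (adjusted p 0.633 in limma). Xlr4a, an X-linked gene, differed by 1.43. Ppcdc, which makes a step of coenzyme A synthesis, differed by 0.86 and Asb18, a SOCS-box protein, by 1.07. Differences of 0.98 were seen for Tifab and of 0.90 for Zfp827, a zinc finger protein with another probe at −0.18. Smaller ones belonged to Get1 (0.63), which inserts tail-anchored proteins, Klhl1 (0.47), Mtmr10 (0.41), Siah3 (0.39) and Mrgbp (0.33). By size of difference, Oxct2b, a testis form of the ketone-using transferase, followed with 1.77, Trim67 with 1.74, Cox8b, the muscle form of a cytochrome oxidase subunit, with 1.67, Wfdc12 with 1.55, Car12, a carbonic anhydrase, with 1.54, Prtg with 1.49 and Eprn with 1.39.

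Below WT, the pair of transporters that pump sterols into bile was prominent. Abcg5 had 2.04, 1.43 and 2.97 in normoglycaemic KO livers, against 3.49, 3.73, 3.98, 4.21 and 3.82 in WT livers, 3.24-fold lower. Its partner Abcg8, transcribed from a shared promoter region, differed by −1.67. Both had separate groups and an adjusted p of 0.957. Tdo2, the dioxygenase that opens the tryptophan ring and appears in liver around birth, was at −2.99, −4.32 and −3.10 in normoglycaemic KO livers and at −0.39, −2.78, −0.45, −0.54 and −1.81 in WT livers, 4.85-fold lower. WT replicate 2 lay next to the KO livers. Cyp2e1, a cytochrome induced after birth, was at 5.84, 6.64 and 6.30 in normoglycaemic KO livers and at 8.44, 7.84, 7.60, 8.06 and 7.75 in WT livers, 3.20-fold lower. Every KO liver was below every WT liver.

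Other named genes with separate groups lay below WT. Adh4, a retinol and alcohol dehydrogenase, was at −1.09, −1.92 and −1.11 in normoglycaemic KO livers and at 0.13, −0.63, 0.06, −0.34 and −0.49 in WT livers. Rdh16, a retinol dehydrogenase, differed by −1.23, Hsd17b6, a steroid and retinol dehydrogenase, by −1.31, and the fatty acid hydroxylase Cyp4f15 by −0.83. Ces3a, a carboxylesterase, differed by −1.39, Acnat2, an acyl transferase, by −1.68, and Ldhd, which oxidises D-lactate, by −0.83. Aqp9, the channel through which glycerol enters hepatocytes, differed by −0.61. Zbtb16, a transcription factor induced by glucocorticoids, was at −0.29, −0.31 and 0.24 in normoglycaemic KO livers and at 1.95, 0.97, 1.14, 1.20 and 0.61 in WT livers, while its difference from WT in hypoglycaemic KO livers was 1.69. Esrrg, a nuclear receptor, differed by −1.29, Plppr1 by −1.26, Ppp4r4 by −0.76, Cd7, a T and natural killer cell surface protein, by −0.72, Pdzk1ip1 by −0.64, Ocm, a calcium-binding protein, by −0.61, the kinase Mapk15 by −0.54, Ebp, a sterol isomerase, by −0.41, and Tlnrd1 by −0.35. Apart from Mirg, none of the genes picked for the separation of their groups had an adjusted p under 0.63.

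**Figure D2:**
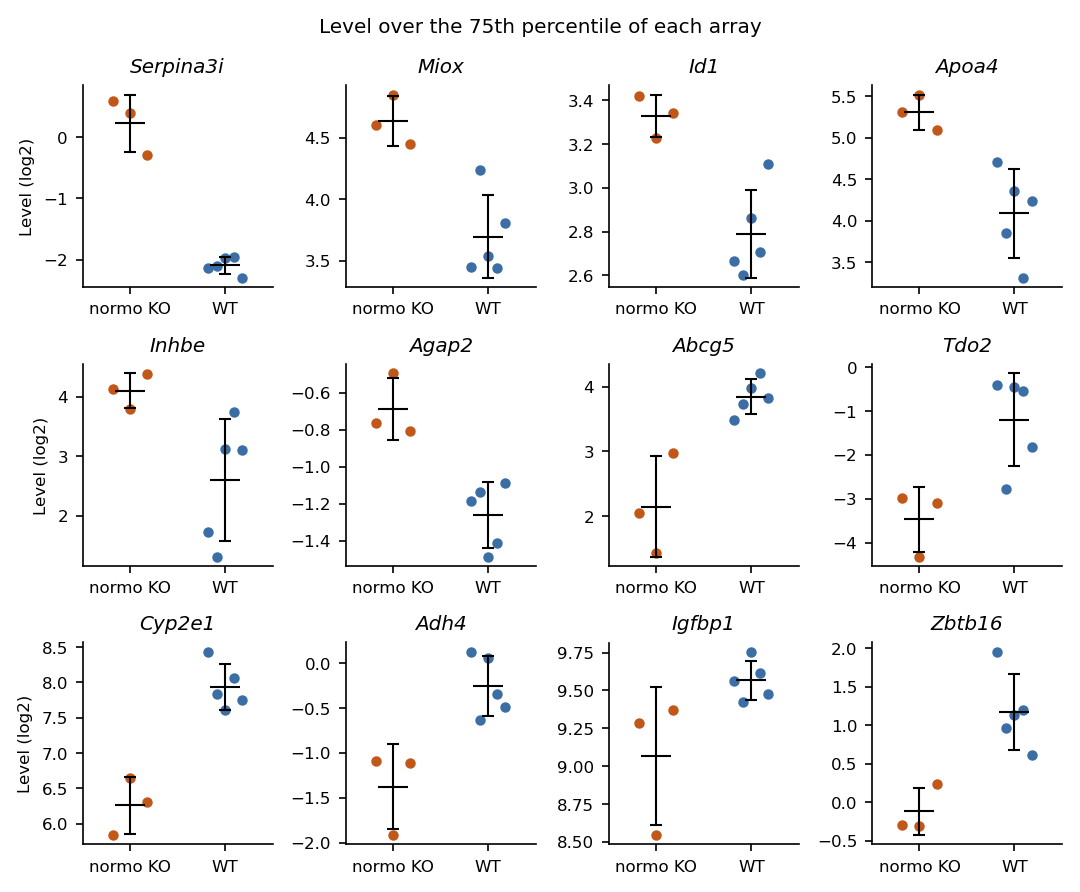
Level of 12 genes over the 75th percentile of each array (log2, vertical axes of different range) in the 3 normoglycaemic KO livers and the 5 WT livers, with points for pups and bars for mean ± SD. The KO points lie above the WT points for Serpina3i, Miox, Id1, Apoa4, Inhbe and Agap2 and below them for Abcg5, Tdo2, Cyp2e1, Adh4, Igfbp1 and Zbtb16.

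Gene lists give the same data by function. No member of any list passed over all genes, so each list is given by its counts and its median, to be set beside the whole table, where the median was 0.02, 54.9% of genes were above WT, and 2.53% were higher and 1.38% lower with separate groups. Of 28 measured targets of glucagon, cAMP and glucocorticoids 24 were lower in normoglycaemic KO than in WT livers, with a median difference of −0.25. Of the 28, 4 were lower with separate groups (Zbtb16, Igfbp1, Klf9 and Klf15) and 1 was higher (Id1). The mean level of all 28 was 3.35, 2.90 and 3.34 in normoglycaemic KO livers and 3.56 to 4.78 in hypoglycaemic KO livers. In WT livers it was 4.07, 3.17, 3.67, 3.56 and 3.50. The pancreas-carrying replicates 2 were the lowest of their groups. Without both of them the median was −0.22, without normoglycaemic KO replicate 2 alone −0.15, and with Ddx3y as a covariate −0.48. It was −0.32 within slide 1 and −0.35 within slide 2. In hypoglycaemic KO livers, compared with the same WT livers, 27 of these 28 genes were higher, with a median difference of 0.67.

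Among single members of that hormone response, Igfbp1, a secreted binding protein of insulin-like growth factors that insulin represses, was at 9.28, 8.54 and 9.37 in normoglycaemic KO livers and at 9.56, 9.42, 9.76, 9.61 and 9.48 in WT livers. Its difference of −0.50 became −0.27 without both replicates 2. Klf9 (−0.73) and Klf15 (−0.72), transcription factors that glucocorticoids induce, had separate groups as well. G6pc, the phosphatase that releases free glucose, was at 6.45, 5.11 and 6.60 in normoglycaemic KO livers and at 7.46, 6.26, 7.35, 7.43 and 7.17 in WT livers, and replicates 2 were the lowest in both groups (difference −1.08, exact permutation p = 0.0714). Pck1, which makes phosphoenolpyruvate, differed by −0.80 (exact permutation p = 0.0357), the coactivator Ppargc1a by −1.15 (exact permutation p = 0.0536), the aminotransferase Tat by −1.36 (exact permutation p = 0.161) and the pyruvate dehydrogenase kinase Pdk4 by −0.50 (exact permutation p = 0.25). In all 5 the groups overlapped, and replicate 2 was the lowest library of each group. Their adjusted p in limma lay between 0.957 and 0.961.

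Lists of carbohydrate metabolism moved less. Of 20 gluconeogenesis and glucose release genes 14 were lower, with a median of −0.09, which became −0.04 without normoglycaemic KO replicate 2 and −0.14 without both replicates 2. Its separate members were Aqp9 below and Ldha, lactate dehydrogenase (0.23), above WT. Of 17 glycogen genes 12 were lower, with a median of −0.14. Glycolysis and pyruvate use was balanced, with 13 higher and 12 lower of 25 and a median of 0.00. Its separate member was Pfkfb1, the liver form of the enzyme that sets fructose 2,6-bisphosphate (−0.78). In the insulin, growth hormone and IGF axis 18 of 25 were lower, with a median of −0.11, and −0.06 without both replicates 2. Separate groups there belonged to Igfbp1, Igfbp2 (−0.38) and Prlr, the prolactin receptor (−0.82). Igf1 differed by −0.52, with overlapping groups.

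For fatty acid and cholesterol metabolism the medians were slightly above WT. Fatty acid oxidation had 24 of 36 genes higher (median 0.07), with the nuclear receptor Ppara at −0.36 as its separate member, and ketone synthesis had 9 of 12 higher (median 0.09), with Oxct1, the ketone-using transferase, at −0.31. Lipogenesis had 15 of 24 higher (median 0.14), with the elongase Elovl6 at 0.54 the separate one. Its median was 0.04 without both replicates 2 and 0.06 without normoglycaemic KO replicate 2 alone. Fasn, fatty acid synthase, differed by 0.25, the desaturase Scd1 by 0.41 and the lipid droplet protein Pnpla3, named here after its values were seen, by 0.95. Cholesterol synthesis stood furthest above WT of the metabolic lists, with 21 of 24 genes higher and a median difference of 0.29. Its mean level was 2.08, 2.62 and 2.28 in normoglycaemic KO livers and 1.63, 2.63, 1.95, 1.79 and 2.21 in WT livers, so that both replicates 2 were high and the groups overlapped. No member was higher with separate groups, and Ebp was lower. Sqle, squalene epoxidase, differed by 0.88 and Cyp51, the lanosterol demethylase, by 0.85, both named after their values were seen. The median was 0.25 without both replicates 2 but 0.14 without normoglycaemic KO replicate 2 alone. Bile acid synthesis and transport had 14 of 22 genes lower (median −0.19, and −0.12 without normoglycaemic KO replicate 2), among them the bile acid ligase Slc27a5 (−0.45), Hsd3b7 (−0.26) and the repressor Nr0b2 (−0.65), each with separate groups.

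Lists of nitrogen metabolism had medians below WT, with mean levels that overlapped between the groups. Of 35 genes of amino acid breakdown 31 were lower, with a median of −0.19, and 2 of them had separate groups, Tdo2 included. Their mean level was 4.49, 4.00 and 4.28 in normoglycaemic KO livers and 4.99, 4.11, 4.71, 4.79 and 4.58 in WT livers. The urea cycle and ammonia list had 10 of 14 lower, with a median of −0.27, and 1 member was higher and 2 were lower with separate groups. In both lists replicate 2 was the lowest library of each group. Without normoglycaemic KO replicate 2 their medians were −0.14 and −0.19, and without both replicates 2 they were −0.22 and −0.25. Glul, glutamine synthetase of pericentral hepatocytes, differed by −0.23 with separate groups, Cps1, the first step of the urea cycle, by −0.73 and Ass1 by −0.34. Periportal genes had 14 of 15 lower (median −0.34) and pericentral targets of beta-catenin 14 of 17 lower (median −0.26), so that genes of both ends of the liver lobule lay below WT. The periportal mean was 4.35, 3.77 and 4.19 in normoglycaemic KO livers and 4.82, 4.12, 4.72, 4.72 and 4.49 in WT livers, so that replicate 2 was the lowest of each group and the groups overlapped. The periportal median was −0.12 without normoglycaemic KO replicate 2, −0.45 without both replicates 2 and −0.52 with Ddx3y as a covariate. In hypoglycaemic KO livers the medians were 0.26 for periportal and −0.35 for pericentral genes.

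Lists of secretion and stress were shifted without gene-level calls. Chaperones of the endoplasmic reticulum had 18 of 23 genes lower and a median of −0.21, and 5 had separate groups. Their mean level was 3.37, 3.39 and 3.33 in normoglycaemic KO livers and between 3.48 and 3.63 in WT livers, with no overlap. In hypoglycaemic KO livers the mean ran from 3.11 to 3.71. The median difference of that group from the same WT livers was −0.24, with 4 of 23 genes above WT. With Ddx3y as a covariate the median of normoglycaemic KO livers was −0.09. Calr, the calcium-binding chaperone calreticulin, differed by −0.54, the trophic chaperone Manf by −0.55, and the disulphide isomerases Pdia6 and Pdia3 by −0.32 and −0.30. The ATF4 stress response had 21 of 30 genes higher (median 0.12, and 0.08 without both replicates 2) and 0 with separate groups, with Chac1 at 0.31 and Fgf21, a fasting hormone, at 0.96. Coagulation factors had 26 of 27 lower, with a median of −0.12 that became −0.05 without both replicates 2. F7 was the separate member, at −0.47. Complement genes had 18 of 26 lower (median −0.09), with C1ra at −0.76 and separate groups. Oxidative phosphorylation had 43 of 47 lower at a median of −0.10, and −0.05 without normoglycaemic KO replicate 2. Drug-metabolising cytochromes had 27 of 37 lower at −0.15, and −0.02 without both replicates 2. The hypoxia list had a median of −0.07 that became −0.004 without both replicates 2, with 8 of 17 genes higher and the prolyl hydroxylases Egln1 (0.44) and Egln3 (0.56) as its separate members. The direction was not the same on both slides for several of these lists: within slide 1 and slide 2 the medians were 0.18 and −0.03 for the ATF4 response, −0.19 and 0.01 for coagulation factors, −0.39 and 0.005 for cytochromes and 0.005 and −0.15 for oxidative phosphorylation. The 28 measured hepatocyte identity genes had a mean level of 5.65 to 5.83 in normoglycaemic KO livers and 5.62 to 5.94 in WT livers, well above each array's 75th percentile, with a median difference of −0.06 (−0.02 without both replicates 2) and the transcription factor Foxa3 at 0.72.

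Cell cycle genes were higher than WT in 37 of 38, with a median difference of 0.15 and 0 with separate groups. Their mean level was 2.58, 2.63 and 2.63 in normoglycaemic KO livers and 2.12, 2.80, 2.38, 2.47 and 2.50 in WT livers. WT replicate 2 was the highest library and the groups overlapped. Interferon response genes were higher in 29 of 33, with a median of 0.17 that became 0.09 without both replicates 2 and 0.31 with Ddx3y as a covariate. Targets proposed for cluster microRNAs on the list numbered 4, with a median of −0.10, and −0.05 without both replicates 2.

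Markers of natural killer and cytotoxic T cells lay below WT. Of 20 measured markers 14 were lower, with a median of −0.19, and their mean level was −2.11, −1.84 and −1.92 in normoglycaemic KO livers and −1.57, −1.57, −1.74, −1.77 and −1.83 in WT livers. The groups thus met at −1.84 and −1.83. Gzma, a granule protease, differed by −0.76 (3.46, 4.23 and 3.36 in normoglycaemic KO livers, 4.63, 4.68, 4.29, 4.38 and 4.22 in WT livers), and Gzmb, another one, by −0.52. The chemokine Ccl5 differed by −0.71 and the surface receptor Klrb1c by −0.70, while Cd247, a signalling chain of T and natural killer cells, differed by 0.62. In these bulk samples fewer cells of a type and less RNA per cell cannot be told apart. Hypoglycaemic KO livers had a median of −0.71 for the list. The medians were −0.01 for erythroid, 0.03 for Kupffer cell and −0.01 for endothelial markers. Without normoglycaemic KO replicate 2 these were 0.09, 0.09 and 0.07. B-lineage markers had a median of −0.03, but 0.18 without both replicates 2, where 13 of 14 were higher, and −0.19 within slide 1 against 0.24 within slide 2. Granulocyte markers had a median of −0.06, with 0.05 without both replicates 2, −0.27 within slide 1 and 0.24 within slide 2.

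**Figure D3:**
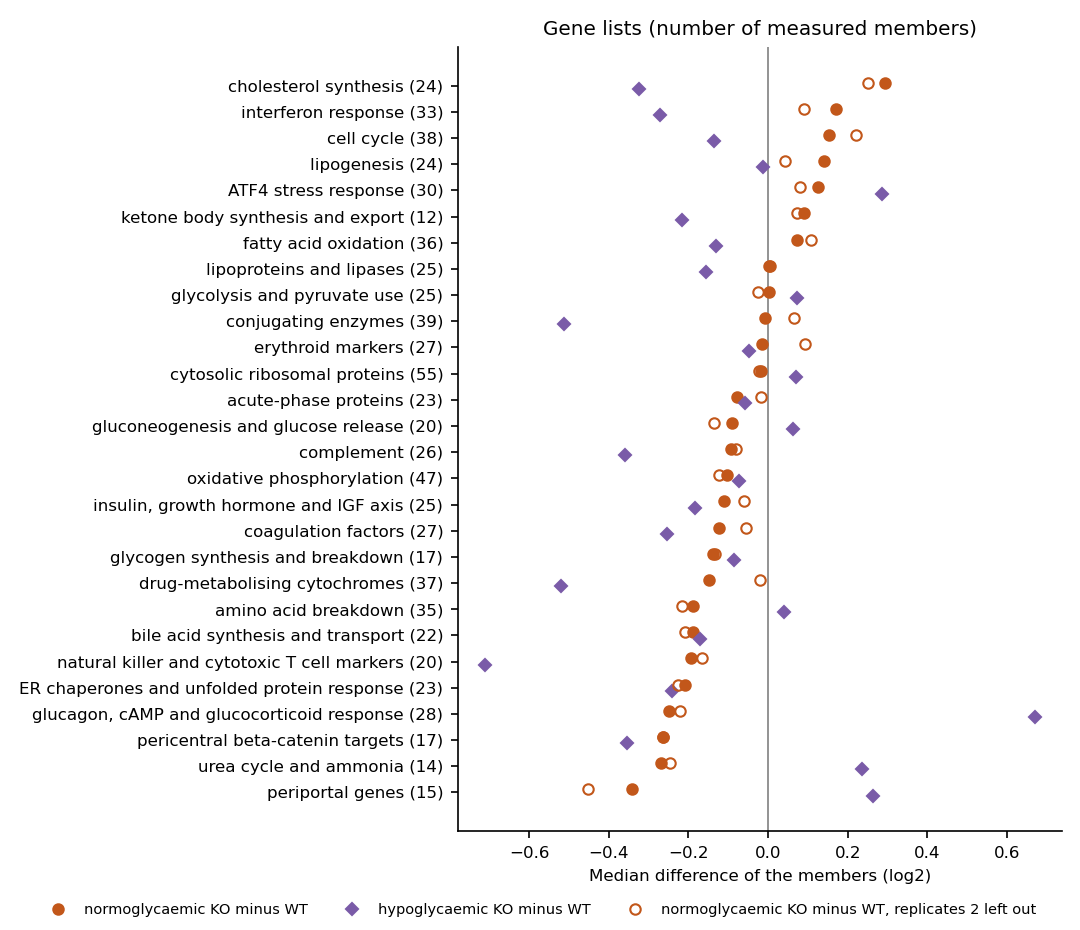
Median difference from WT over the measured members of 28 gene lists (log2, horizontal axis) for normoglycaemic KO livers (filled circles), hypoglycaemic KO livers (diamonds) and normoglycaemic KO livers without both replicates 2 (open circles). Cholesterol synthesis is at 0.29 and periportal genes at −0.34 in normoglycaemic KO livers, and the hormone response is at −0.25 in normoglycaemic KO but at 0.67 in hypoglycaemic KO livers, which share the WT livers.

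Genes of other tissues accounted for the most lopsided list. All 27 measured pancreas acinar markers of 31 were higher on average in normoglycaemic KO livers, with a median of 1.19, without both replicates 2 the median was −0.40, and without normoglycaemic KO replicate 2 alone it was −1.21. Cpa1, a pancreatic carboxypeptidase, was at −2.30, 5.88 and −2.67 in normoglycaemic KO livers and at −1.88, 2.82, −2.51, −0.92 and −2.59 in WT livers. Only replicate 2 of each group was high. Muscle and skin markers had a median of 0.52, and −0.22 without both replicates. The part of such tissue in the results was not tested beyond leaving both libraries out, which gave 0 called genes and 642 higher and 290 lower genes at the unadjusted threshold. Genes of liver identity, red cells, glycogen and fasting fixed for naming whatever their result included 16 with differences from −0.20 to 0.19 and no adjusted p under 0.968 in limma. Larger but overlapping differences were seen for Cyp1a2, a postnatal cytochrome (−0.71), the hepatic regulator Tbx3 (−0.26), the acute-phase protein Saa1 (0.21) and the lipase inhibitor Angptl4 (−0.22).

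**Figure D4:**
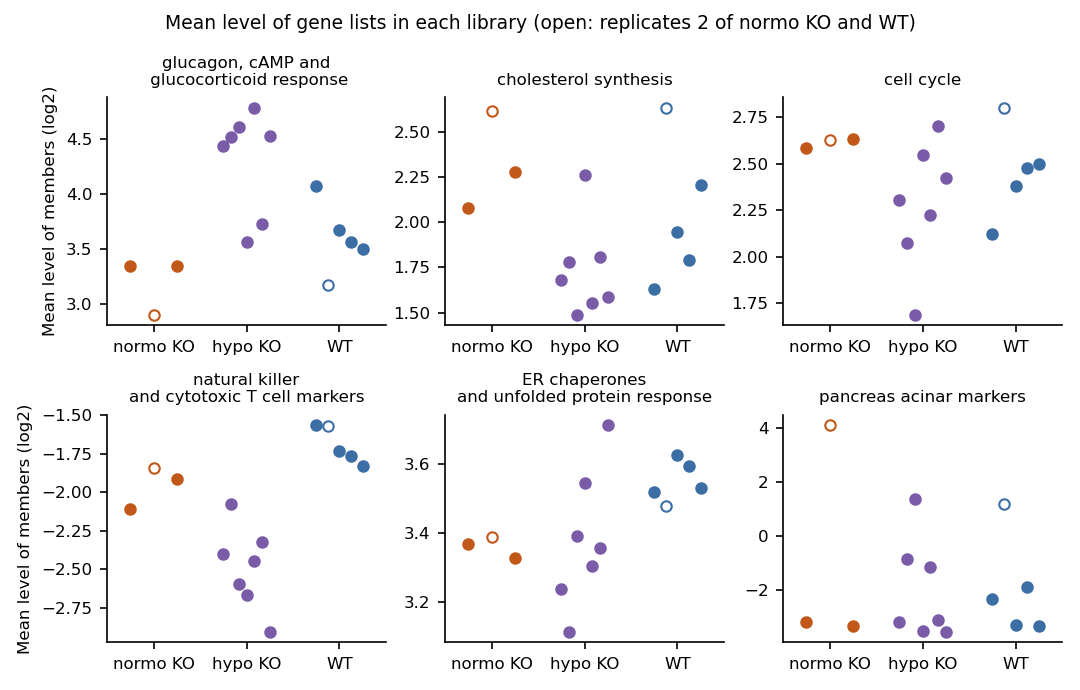
Mean level of the members of 6 gene lists in each library (log2, vertical axes) for normoglycaemic KO, hypoglycaemic KO and WT livers, with open circles for replicates 2 of normoglycaemic KO and WT. The hormone response is at 2.90 to 3.35 in normoglycaemic KO, 3.56 to 4.78 in hypoglycaemic KO and 3.17 to 4.07 in WT livers, and for pancreas acinar markers the open circles are the highest of normoglycaemic KO (4.10) and of WT livers (1.18), beside 1 hypoglycaemic KO liver at 1.36.

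Set against the other KO livers, normoglycaemic KO livers differed in 14 genes of 27416 at an adjusted p of 0.05 in limma, 9 higher (0.0328%) and 5 lower (0.0182%), together 0.0511%. Depp1, a target of FOXO factors in fasting, was at 4.33, 3.37 and 3.38 in normoglycaemic KO livers, against 5.10 at the lowest, 5.54 at the median and 6.52 at the highest in hypoglycaemic KO livers (difference −1.87, adjusted p 0.039). Angptl8, an insulin-induced inhibitor of lipoprotein lipase, was at 4.77, 4.74 and 5.28 in normoglycaemic KO livers, at 1.80, 2.11 and 3.17 (lowest, median, highest) in hypoglycaemic KO livers, and at 2.99, 4.09, 3.10, 3.68 and 4.93 in WT livers. Ppp1r3c, the subunit that directs a phosphatase to glycogen, was at 0.92, 1.25 and 1.22 in normoglycaemic KO livers, at −2.10, −1.56 and −0.07 in hypoglycaemic KO livers, and at 0.00, 0.88, 0.40, 0.46 and 1.45 in WT livers. In all 3 genes the KO groups were apart while normoglycaemic KO and WT livers overlapped. Agap2 (0.72) was also higher and Mapk15 (−0.79) lower. Prl7b1 and Gm3961, at background in every hypoglycaemic KO liver, were at least 2.64-fold and 2.65-fold higher, and Syt4, a synaptotagmin at background in every normoglycaemic KO liver, was at least 2.01-fold lower. The other 6 are clone, noncoding or unnamed probes. The groups had been sorted by glucose. With the replicate number as a block, or without the library labelled hypoglycaemic KO replicate 2, 0 genes were called. The same held without replicates 2 of normoglycaemic KO and WT livers. Hypoglycaemic KO replicate 3, which also carried pancreas transcripts, was still in those fits. Median differences between both KO groups were −1.06 for the hormone response, 0.58 for cholesterol synthesis, 0.49 for interferon response, 0.42 for natural killer and cytotoxic T cell markers and 0.36 for cell cycle genes.

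By position, chromosome 12 held the highest autosomal share of genes with all normoglycaemic KO above all WT livers, with 43 of 1085 genes (3.96%), against 2.53% of all genes, and 14 lower (1.29%). Among 217 windows of 5 Mb with at least 50 genes, chosen after the values were seen and so not tested, the one at chr12:115000001-120000000 of mm9 ranked first with 16 of 92 genes higher and 2 lower. The next window held 8.53%. The 16 higher genes of the first window are among the 43 of chromosome 12, so both counts hold the same genes. The 14 of these 16 genes with at least 1 WT library well above background differed by 0.42 to 1.74, and the other 2 have no measured size. The 16 genes began 4.28 Mb beyond the Mirg probe, and 11 of the 16 carry only transcript numbers in the files. Among the 16 is Igh-VJ558, named for variable segments of the immunoglobulin heavy chain. Their mean level was −3.64, −3.55 and −3.62 in normoglycaemic KO livers, −4.55 to −3.75 in hypoglycaemic KO livers, and −4.40, −4.47, −4.98, −4.85 and −4.80 in WT livers. These are dim signals, and 6 of the 16 genes were well above background on all normoglycaemic KO and WT arrays. All 16 also had a higher mean in hypoglycaemic KO than in the same WT livers, by 0.15 to 1.30, and 0 were called there. The 16 were picked because normoglycaemic KO lay above these same WT values. Their mean levels are thus separate by that choice, and the hypoglycaemic difference is no independent result. Over all 92 genes of the window the median difference from WT was 0.24 in normoglycaemic KO and 0.12 in hypoglycaemic KO livers. Near-identical variable segments may share hybridisation, which was not tested. The B-lineage marker list had a mean level of 0.53, 0.35 and 0.70 in normoglycaemic KO livers and 0.44, 0.72, 0.40, 0.36 and 0.54 in WT livers, which overlapped, and its part in the result for this window was not tested.

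**Figure D5:**
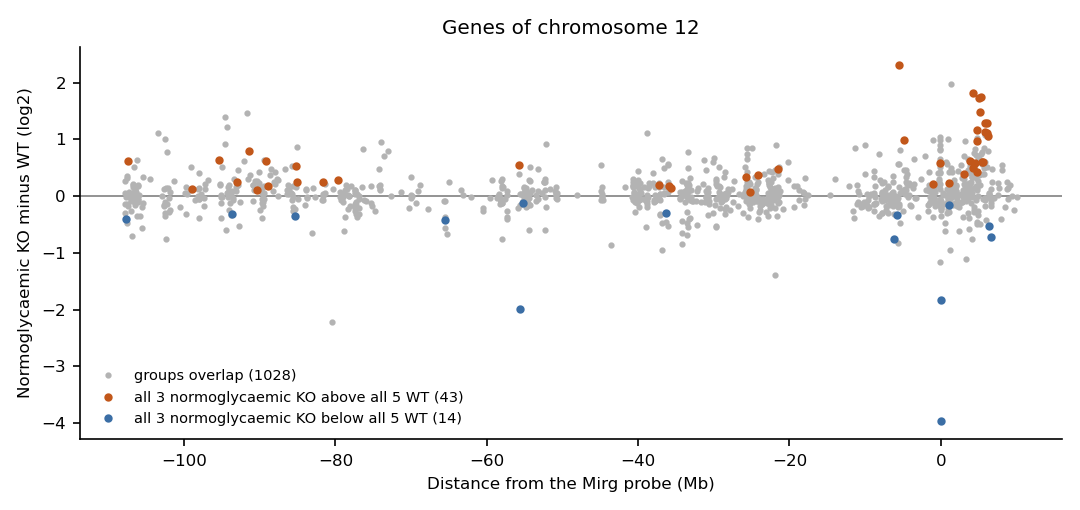
Difference between normoglycaemic KO and WT livers (log2, vertical axis) for genes of chromosome 12 against the distance from the Mirg probe in Mb (horizontal axis), with colour for the 43 genes whose KO livers all lie above and the 14 whose KO livers all lie below all WT livers. Higher genes crowd 4.28 to 6.26 Mb beyond Mirg, and Mirg itself is the lowest point at −3.97.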

How the data were processed

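Liver RNA of 15 pups was hybridised as Cy3-labelled cRNA, 1 array per pup, after Tri-reagent extraction, per the labels' protocols. The intensity values were made with Agilent Feature Extraction 10.10, which subtracted background within each array and applied no scaling between arrays, per the file headers. The deposited log2 values of the series matrix (40048 probes, all columns sharing a maximum of 19.265) come from limma, of unstated version, per the submitters' processing notes, and were tried as an alternative.

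Here, a level is log2 of the processed signal minus the 75th percentile of its array (control spots left out). Of 55681 probes, the 40915 that 3 or more of 15 arrays showed well above background were kept, and the brightest probe stood for each gene, which left 27416 genes or single-probe transcripts. Probes were named by accession (27235), current symbol (3581) or synonym (565), or else by the files' own label (24300). Coordinates are of mm9, per the file headers, and miRNA sequences are RefSeq's. A fold is 2 to the power of a difference. Where every library of a group was below background, it is a bound against the dimmest signal well above background.

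In R 4.3.3, limma 3.58.1 fitted the group means of all 15 arrays (lmFit, then eBayes, residual degrees of freedom 12, prior 1.86), and p-values were adjusted by Benjamini-Hochberg over all genes. Single values were compared by 2-sided exact permutation tests. The fit was also run on simulated levels with independent normal spread in each library. These held no slide, sex or pancreas structure, so that run does not test the fit under such structure. Python 3.11.15 with numpy 2.4.6, pandas 2.3.3 and matplotlib 3.10.9 did the rest.

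The titles of both groups share replicate numbers. Deviations of same-numbered libraries from their group means correlated at 0.227, 0.302 and 0.105, each above 0.1, so a fit with the number as a block is given where it changed a result. Differently numbered libraries correlated at −0.219 to 0.165. Normoglycaemic KO replicate 3 was closer to WT replicate 5 (0.165) than to WT replicate 3 (0.105), and the 0.302 joins both pancreas-carrying libraries. The check thus does not establish the pairs. The pairing comes from this check and the titles alone.

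The comparison, the gene lists and the genes were chosen with earlier results of these data known. Per direction, the rule named up to 15 genes with a proper symbol, signal above background and separate groups by smallest p, and up to 8 more by size. It added up to 3 separate members of each list per direction and a set of genes whatever their result. Sqle, Cyp51, Calr, Gzma, Pnpla3 and Gm3961, and the windows along chromosomes, were added after their values were seen. Some genes under the rule are not reported here. Alternatives are given in the closing section.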

Additional observations from a re-analysis of the deposited data

Results flagged for a closer look

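Among 125 gene levels and marker sums examined in the 5 WT livers, and 5 gene levels in the 7 hypoglycaemic KO livers, 13 had a library far from the rest of its group by Dixon's criterion, where chance gives about 1 in 20. WT replicate 2 was low for G6pc (6.26) and Ass1 (6.94) and high for Fasn (−1.53) and Prlr (1.16). It also had the highest summed signal, in multiples of the 75th percentile, of pancreas acinar (242), pancreas islet (6.22) and adrenal and kidney (40.5) markers. WT replicate 3 was high for Ddx3y (2.25) and for the sum of Y-linked transcripts (14.4), and low for Xist (−2.59) and for its X-inactivation sum (0.166). WT replicate 4 was low for Prtg (−5.55). Among hypoglycaemic KO livers, replicate 5 was high for Depp1 (6.52). Groups of 3 were not examined in this way.

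Normoglycaemic minus hypoglycaemic KO differences that passed the limma fit over all genes were 3.67 for Prl7b1, 0.72 for Agap2, −0.79 for Mapk15, −1.87 for Depp1, 2.51 for Angptl8, 2.49 for Ppp1r3c, −2.54 for Syt4 and 3.43 for Gm3961. Those of Prl7b1, Gm3961 and Syt4 are fitted values with one group at background and give no measured size.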

How the results depend on the processing

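The count of 0 called genes against WT became 1 with median scaling, with normexp and quantile normalization and with a trended robust prior, 2 with quantile normalization and with the series matrix values, 3 with the 8 arrays alone and 3 on slide 2 alone, and 2 without the library labelled hypoglycaemic KO replicate 2, alone or together with both pancreas-carrying libraries (the last setting was chosen after seeing the data). Leaving out each of the 8 normoglycaemic KO and WT pups in turn gave 0 to 1, the 1 being Prl7b1 without WT replicate 5. The genes called were the noncoding transcript over Mirg, Mirg, Gm3961 or Serpina3i, and on slide 2, with 1 KO liver, Tnr and 2 noncoding transcripts. The 1331 genes at an unadjusted p under 0.05 became 817 on slide 1 alone and 720 to 2051 without a pup (720 without normoglycaemic KO replicate 2, 2051 without WT replicate 2). The 1070 genes with separate groups became 8224 on slide 1 and 13786 on slide 2 alone, 3804 without both pancreas-carrying libraries and 1342 to 3407 without a pup, since fewer libraries separate more easily. The 14 genes called against hypoglycaemic KO became 8 with median scaling, 107 with normexp, 59 with matrix values, 4 without the filter on dim probes, 5 with a slide block, 0 on slide 1 and 3 on slide 2 alone, 234 with Ddx3y as a covariate, 199 with the trended prior, and 0 with a replicate block, without replicate 2 of both groups or without the library labelled hypoglycaemic KO replicate 2. Without 1 of those 8 pups they were 0 to 319: 0 without normoglycaemic KO replicate 1 or 3, 1 without its replicate 2, 4 without WT replicate 1, 3 or 4, and 319 without WT replicate 2. Hypoglycaemic KO pups other than replicate 2 were not left out. The cause of these shifts was not tested.

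Mirg stayed between −4.05 and −3.87 without a pup. It was −4.10 on slide 1, −3.84 on slide 2 and −3.87 without both pancreas-carrying libraries, where the splits are too few for an exact p under 0.05. The glucose difference was −14.6 to −7.25 mg/dl without a pup. The sign turned for Cpa1 (−0.51 without both pancreas-carrying libraries, −0.67 on slide 2, −1.47 without normoglycaemic KO replicate 2), Ass1 (0.13 on slide 1), and, without a pup, for Angptl4 (−0.47 to 0.15), Fasn (−0.033 to 0.43), Saa1 (−0.031 to 0.40) and Cpa1 (−1.47 to 2.80). The turns of Angptl4 and Fasn came without normoglycaemic KO replicate 2 and that of Saa1 without its replicate 3. Of 2804 values of 108 genes under alternatives, 2784 were counted as the same, 8 as turned in sign and 12 as passing the threshold. Of 1404 list medians 1347 moved by less than the spread between pups. The replicate block changed no other call than those given. With 3 and 5 pups, dim probes and uneven sex, slide and pancreas carry-over, small differences were not resolved.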

Other observations

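Among lists not described above, those for ribosomal proteins, conjugating enzymes and imprinted growth genes had medians near that of all genes in normoglycaemic KO livers. Of 55 cytosolic ribosomal protein genes 37 were lower, with a median difference of −0.02 and 0 with separate groups. Conjugating enzymes of drug and hormone metabolism had 19 higher and 20 lower of 39, and Gstk1, a mitochondrial and peroxisomal glutathione transferase, had separate groups at −0.63. The same list had a median of −0.51 in hypoglycaemic KO livers, which are compared with the same WT livers. Acute-phase proteins had 14 of 23 lower, with the copper carrier Cp at −0.47 and separate groups, and the liver-secreted Fetub, a hepatocyte marker, was at −0.35 with separate groups. Imprinted growth genes outside the Dlk1-Dio3 domain had 7 higher and 8 lower of 15, with a median of −0.01 and 0 with separate groups. Adrenal and kidney markers had a median of 0.27, and −0.07 with Ddx3y as a covariate, and iron handling genes 0.12, and 0.02 without both replicates 2.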
